A study of Mus musculus with 4 samples.

Results

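The subject here is the part of gene expression in marrow stem and progenitor cells that was not the sum of losing Aspp1 and losing p53. All 4 arrays of the series entered it, 1 for each genotype. For each gene the difference that the loss of Aspp1 made in cells with p53 (Aspp1-/- minus WT) was subtracted from the difference it made in cells without p53 (Aspp1-/-p53-/- minus p53-/-). The result is called the interaction. A value of 0 means that the 2 losses added up on the log2 scale, a positive value that the level with both genes lost lay above the additive level, and a negative value that it lay below. Of 55681 gene probes on the arrays, 26458 were well above background on every array, and they stood for 19016 genes or transcripts. The high end, with an interaction of 1 or more (2-fold), held 145 of them (0.763%), and the low end, at −1 or less, held 201 (1.06%). A second measured probe agreed in sign for 8 genes of the high end and 37 of the low end, which is 0.154% and 0.711% of the 5205 genes with more than 1 measured probe.

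LSK cells are lineage-negative, Sca-1-positive and c-Kit-positive marrow cells, a fraction rich in blood stem cells and early multipotent progenitors. The tumour suppressor p53, encoded by Trp53, activates genes of cell cycle arrest and apoptosis and restrains the cycling of stem cells. ASPP1, encoded by Ppp1r13b, binds p53 and favours its transcription of pro-apoptotic targets, and it is also known to act on the Hippo pathway, so its loss can have effects with p53 and without it.

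The arrays were 1-colour Agilent mouse expression arrays, each hybridised with RNA pooled from 3 male C57BL/6 mice. The WT and Aspp1-/- mice carried intact p53 alleles and no Cre. The p53-/- and Aspp1-/-p53-/- mice carried p53 alleles flanked by loxP sites, and Mx1-Cre deleted them. Mx1-Cre places the recombinase behind the promoter of Mx1, which interferon switches on. All 4 genotypes were given pIpC, a double-stranded RNA analogue that induces interferon, in 5 injections from 8 weeks of age. Their LSK cells were taken 4 weeks after that, at 12 weeks. The treatment text gives 400 μg for every genotype, while the sample labels read 400, 401, 402 and 403 μg in the order WT, Aspp1-/-, p53-/- and Aspp1-/-p53-/-. Each genotype is 1 pool, so no value below has a replicate check and no test between genotypes was possible.

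Both differences in the interaction compare arrays that are alike in Cre and in slide row: WT and Aspp1-/- lay in row 1 without Cre, and the other 2 genotypes in row 2 with Cre. An effect of Cre or of the row that adds the same amount to both arrays of a row therefore cancels. An effect of Cre that depends on Aspp1 cannot be told apart from the interaction. The slide columns differed within each row. The array without both genes lay in column 4 and its partner p53-/- in column 1. Aspp1-/- lay in column 2 and its partner WT in column 1. An effect of the column need not cancel, and it was not tested. On the 4 arrays 50.3% to 53.2% of probes were well above background and none was saturated. All 12 LSK markers were well above background on all arrays. Kit, the receptor that defines the sort, lay between 4.90 and 4.97. Levels are log2 signal relative to the 75th percentile of each array. Of 9 lineage markers 6 were also detected on all arrays, among them Itgam (4.45 to 4.57) and Ly6g (−1.12 to −0.96).

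The targeted genes followed their labels and added up. Ppp1r13b was at 4.53 on the WT array, 1.91 on Aspp1-/-, 4.46 on p53-/- and 1.94 on Aspp1-/-p53-/-, an interaction of 0.10. Trp53 was at 0.36, 0.46, −1.82 and −1.67 in the same order, an interaction of 0.06. The sources used here do not say whether these probes lie in the deleted parts, and a probe outside them would check nothing. The relatives Ppp1r13l, which encodes the inhibitory member iASPP, and Trp63 had interactions of −0.25 and 0.20.

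For most genes the losses were close to additive. The median interaction over all 19016 genes was −0.02, with a standard deviation of 0.32 across genes, and 45.9% lay above 0. The scatter depended on brightness. Genes with a mean level under −3 had a standard deviation of 0.55, and genes above 2 had one of 0.16. Most of both ends was therefore dim: 124 of 145 genes of the high end and 164 of 201 of the low end had a mean level of −1 or less, and 14 and 25 had one above 0. In 101 genes of the high end and 121 of the low end the loss of Aspp1 moved the level in opposite directions with and without p53. The share over all genes was not counted. Choosing genes where the 2 differences lie far apart favours opposite signs, so these counts are no result about the genes. The scanner's error, carried through the 4 arrays, had a median of 0.29 for an interaction, and repeated spots of a probe gave 0.11. Both are technical and say nothing about the spread between mice.

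**Figure D1:**
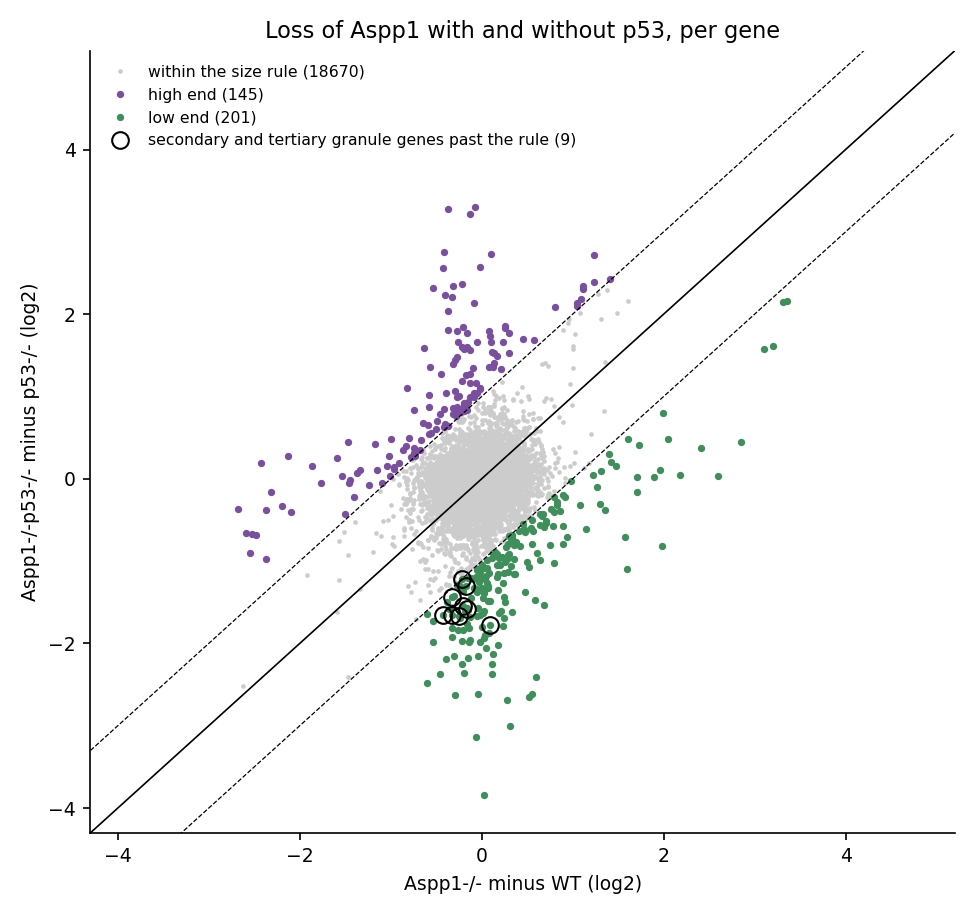
Each point is 1 gene or transcript, with the log2 difference made by loss of Aspp1 in cells with p53 on the horizontal axis and in cells without p53 on the vertical axis. The solid diagonal marks additive loss and the dashed lines an interaction of 1 and −1. The 145 high and 201 low genes lie outside the dashed lines, and the 9 ringed secondary and tertiary granule genes all lie below.

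The list with the lowest median was that of neutrophil granule proteins made late in granulocyte development. Of 28 listed genes of secondary and tertiary granules and of mature neutrophils 20 were measured. Of these 16 had an interaction below 0 and 9 (45.0%) were in the low end, against 1.06% of all genes. The list's median was −0.94, against −0.02 for all genes. The Aspp1-/-p53-/- array was the lowest of the 4 for 17 of the 20, against 29.3% of all genes, and it alone stood apart from the other 3 for 14, against 10.8% of all genes. An array is said to stand apart alone where its distance from the median of the other 3 is at least 2 times the range of those 3.

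Camp encodes the precursor of the cathelicidin antimicrobial peptide. It was at 4.00 on WT, 3.85 on Aspp1-/-, 4.00 on p53-/- and 2.42 on Aspp1-/-p53-/-. The level without both genes thus stood 1.58 under p53-/-, while the loss of Aspp1 alone made a difference of −0.16, an interaction of −1.43. A further Camp probe, which overlaps the first, gave 2.96, 2.64, 2.84 and 1.21, an interaction of −1.30. Ltf encodes lactoferrin, an iron-binding granule protein, and was at 2.20, 1.95, 1.95 and 0.28, an interaction of −1.42. Lcn2, a lipocalin that captures bacterial siderophores, was at 1.99, 1.78, 1.83 and 0.29, an interaction of −1.33. For all 3 genes WT, Aspp1-/- and p53-/- lay close together and only the array without both genes was low.

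The abundant S100 proteins that form calprotectin had the same shape. S100a9 was at 6.57 on WT, 6.40 on Aspp1-/-, 6.41 on p53-/- and 5.11 on Aspp1-/-p53-/-, an interaction of −1.13. S100a8 was at 5.04, 4.72, 4.78 and 3.34, an interaction of −1.12. Ngp, a neutrophil granule protein, was at 1.71, 1.28, 1.52 and −0.13, an interaction of −1.23. Retnlg, a secreted resistin-like protein of neutrophils, had the largest interaction of the list: 0.31, 0.41, −0.27 and −2.04, or −1.87. Itgb2l (−1.32) and Wfdc21, which lay just inside the rule, complete the 9. Just short of the size rule lay Mmp8 (−0.96), the neutrophil collagenase, Il1b (−0.93) and Chil3 (−0.87).

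Not every gene of mature neutrophils was low. Csf3r, the receptor for G-CSF, was at 7.44, 7.32, 7.41 and 7.45, an interaction of 0.15. Hp (0.10), Mcemp1 (0.08) and Ltb4r1 (0.03), the leukotriene B4 receptor, were also near 0. Ly6g, the neutrophil surface antigen of the lineage cocktail, had an interaction of −0.16, and Cxcr2 one of −0.31. The median level of the 20 genes was 1.43 on WT, 1.15 on Aspp1-/-, 1.33 on p53-/- and 0.28 on Aspp1-/-p53-/-. The sort leaves out lineage-positive cells such as mature neutrophils, and the part of any that remained was not tested. In RNA of pooled cells, fewer cells that carry a transcript and less of it in each cell cannot be told apart.

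**Figure D2:**
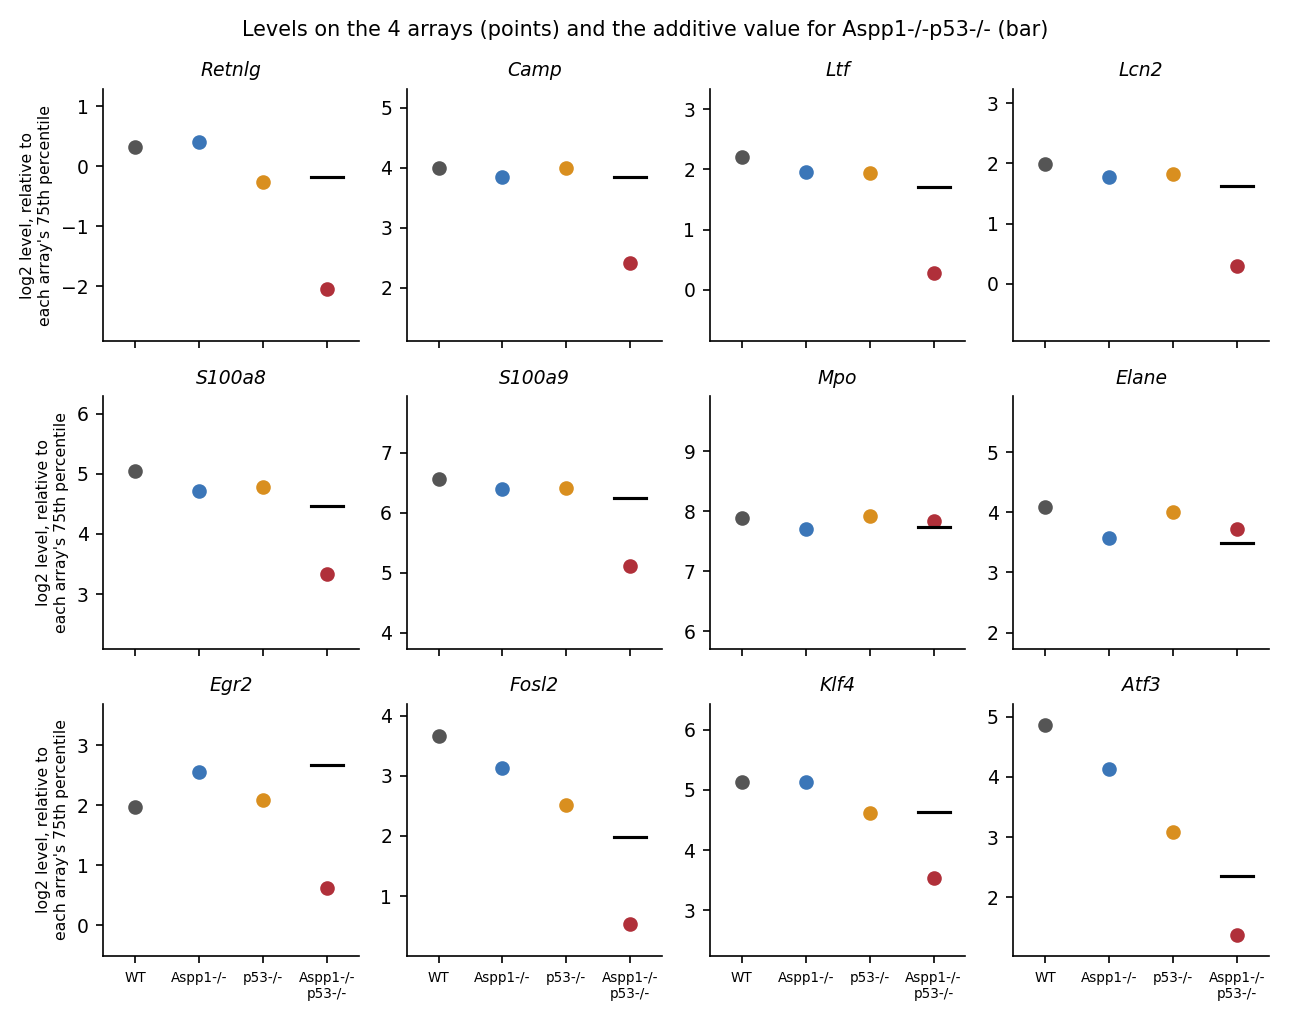
Levels of 12 genes on the 4 arrays (points, log2 relative to each array's 75th percentile) and the level that adding the 2 losses would give for Aspp1-/-p53-/- (bar). All panels span the same range. In Retnlg, Camp, Ltf, Lcn2, S100a8 and S100a9 the Aspp1-/-p53-/- point lies 1.12 to 1.87 under the bar, in Mpo and Elane it lies 0.10 and 0.24 above it, and in the immediate-early genes Egr2, Fosl2, Klf4 and Atf3 it lies 0.98 to 2.06 under it.

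Genes of the primary (azurophil) granules, which are made earlier, at the promyelocyte stage, were centred near 0. All 18 listed genes were measured, none was past the size rule and their median was 0.03. Mpo, the myeloperoxidase gene, was at 7.89 on WT, 7.71 on Aspp1-/-, 7.91 on p53-/- and 7.84 on Aspp1-/-p53-/-, an interaction of 0.10. Elane, neutrophil elastase, was at 4.09, 3.57, 4.01 and 3.72 (0.24), and Ctsg, cathepsin G, at 6.13, 6.00, 6.31 and 6.36 (0.19). Across all 4 arrays each of these 3 genes varied by less than the distance between the p53-/- and Aspp1-/-p53-/- arrays in Camp or Ltf. Of the 18 members 8 had an interaction below 0. Hdc, the histidine decarboxylase gene, was at 0.97, 0.68, 1.01 and 0.21, an interaction of −0.52 with Aspp1-/-p53-/- alone low. Fcnb, a ficolin gene, had −0.28 by its brightest probe and −1.09 by its further probe. Of the granulocyte transcription factor genes, Gfi1 was at 3.94, 4.04, 4.28 and 3.99, an interaction of −0.39 with p53-/- alone high. Cebpe had an interaction of −0.14 and Cebpa one of 0.03.

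The monocyte, macrophage and dendritic cell genes lay slightly to the other side, with a median of 0.12 over 21 of 30 and 16 above 0. The 1 member past the rule was Vcan, which encodes the matrix proteoglycan versican and was at −2.08, −2.24, −2.38 and −0.78, an interaction of 1.76 with Aspp1-/-p53-/- alone high. Markers of other cells that the gate could hold stayed within the size rule. Medians were 0.07 for B-lineage genes (20 measured), −0.04 for T cell genes (14), 0.10 for natural killer cell genes (8), −0.10 for mast cell and basophil genes (10), 0.06 for erythroid genes (21), −0.01 for megakaryocyte and platelet genes (23) and −0.09 for stromal and endothelial genes (18). None of these lists had a member past the rule at either end.

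Promoters of 2 granule genes are shown as examples of members that were low together. They are the 250 bases before the RefSeq start, on the gene's strand, in build GRCm38.p6, at chr9:109849457-109849706 for Camp (minus strand) and chr9:111019042-111019291 for Ltf (plus strand). Neither holds any of the 5 motifs searched, so no base is in capitals.
Camp: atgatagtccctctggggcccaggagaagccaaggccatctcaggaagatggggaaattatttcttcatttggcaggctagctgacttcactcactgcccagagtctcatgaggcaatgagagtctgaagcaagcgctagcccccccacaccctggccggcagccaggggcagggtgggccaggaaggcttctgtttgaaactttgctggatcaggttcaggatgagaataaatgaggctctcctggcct
Ltf: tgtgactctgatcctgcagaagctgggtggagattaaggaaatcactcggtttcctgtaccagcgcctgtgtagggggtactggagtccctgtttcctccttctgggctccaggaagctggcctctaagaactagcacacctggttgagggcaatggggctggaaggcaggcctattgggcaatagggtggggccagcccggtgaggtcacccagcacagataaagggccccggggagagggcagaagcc

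The motifs were the CRE TGACGTCA, the AP-1 site TGANTCA, and, by name, the NF-kB site, the CArG box of serum response factor and the p53 half-site. Both strands were searched, and a hit on each strand of 1 palindromic stretch overlaps itself. Of the 27025 genes with a RefSeq promoter, 1.77% held a CRE, 7.82% an AP-1 site, 8.23% an NF-kB site, 1.62% a CArG box and 8.20% a p53 half-site. Of the 18 granule genes whose promoter was listed, 2 held an NF-kB site, 3 (16.7%) a p53 half-site and none a CRE, AP-1 site or CArG box. In the low end as a whole 7 of 68 promoters (10.3%) held an NF-kB site, 3 (4.41%) a CArG box and 5 (7.35%) a p53 half-site. An AP-1 site was held by 3 (4.41%). In the high end 8 of 43 promoters (18.6%) held an NF-kB site, 5 (11.6%) an AP-1 site, 1 (2.33%) a p53 half-site and none a CArG box. Of the 10621 promoters of measured genes 3.00% held a CRE, 5.63% an AP-1 site, 10.4% an NF-kB site, 1.41% a CArG box and 7.25% a p53 half-site. A match describes letters only, and its absence says only that they are not in this window.

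The immediate-early genes, which encode transcription factors and phosphatases induced within minutes of a stimulus, formed the next group at the low end. Of 42 listed, 39 were measured, 31 had an interaction below 0 (54.1% of all genes did), 3 (7.69%) were in the low end, against 1.06% of all genes, and none in the high end. Their median was −0.37. Aspp1-/-p53-/- was the lowest array for 33 of 39, against 29.3% of all genes, and stood apart alone for 15, against 10.8%. The median level of the list was 4.29 on WT, 4.14 on Aspp1-/-, 3.84 on p53-/- and 3.20 on Aspp1-/-p53-/-, so the loss of p53 alone already went with lower levels and the loss of both with lower ones still.

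Egr2, a zinc-finger transcription factor gene, was at 1.97 on WT, 2.56 on Aspp1-/-, 2.09 on p53-/- and 0.62 on Aspp1-/-p53-/-. The loss of Aspp1 thus went with a difference of 0.59 in the presence of p53 and −1.47 in its absence, an interaction of −2.06. Fosl2, which encodes an AP-1 subunit, was at 3.66, 3.13, 2.52 and 0.54, an interaction of −1.45. Klf4, a Krüppel-like factor that restrains cell division, was at 5.13, 5.13, 4.62 and 3.54, an interaction of −1.09. In Fosl2 and Klf4 the p53-/- array was itself lower than WT, and Aspp1-/-p53-/- was lower again by more than the sum on the log2 scale. On the linear scale the interaction was only −0.056 of the mean level in Fosl2, and −0.49 of it in Klf4.

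Further members were close to the rule. Atf3, a stress-induced transcription factor gene, was at 4.86, 4.14, 3.08 and 1.38, an interaction of −0.98. This gene stepped down over all 4 arrays, so no single array carried it, and on the linear scale its interaction was 0.39 of its mean level, the opposite direction. Zfp36 (−0.93), which encodes a protein that speeds decay of AU-rich mRNAs, Dusp5 (−0.90), a phosphatase for ERK, Nr4a1 (−0.87), an orphan nuclear receptor gene, and Klf2 (−0.86) followed. The best-known members had smaller values: Fosb was at −0.59, Fos at −0.57, Egr1 at −0.46 and Jun at −0.33. On the linear scale 26 of the 39 members, not 31, lay below 0. On the other side lay Dusp4 (0.53), Nfil3 (0.44) and Klf10 (0.38).

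Of the 30 immediate-early genes whose promoter was listed, 7 (23.3%) held an NF-kB site, 4 (13.3%) a CArG box and 2 (6.67%) a CRE. The promoters of the 2 members with the largest interaction are shown because both hold an NF-kB match, in capitals, which begins 117 bases before the start in Egr2 and 182 in Fosl2 and reads on both strands as 1 overlapping pair. They are the 250 bases before the start in GRCm38.p6, both on the plus strand, at chr10:67535249-67535498 (1 of 5 Egr2 starts) and chr5:32136222-32136471. The Egr2 start was picked for having the most motif matches.
Egr2: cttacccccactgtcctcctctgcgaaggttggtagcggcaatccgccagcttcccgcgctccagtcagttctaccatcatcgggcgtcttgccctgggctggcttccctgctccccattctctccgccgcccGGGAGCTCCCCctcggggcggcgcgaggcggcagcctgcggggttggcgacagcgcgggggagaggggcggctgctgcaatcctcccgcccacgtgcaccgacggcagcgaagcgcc
Fosl2: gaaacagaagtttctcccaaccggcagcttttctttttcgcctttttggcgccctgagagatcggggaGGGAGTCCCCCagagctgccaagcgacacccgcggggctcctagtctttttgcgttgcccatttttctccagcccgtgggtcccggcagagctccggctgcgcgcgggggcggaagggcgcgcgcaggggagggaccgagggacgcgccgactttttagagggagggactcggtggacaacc

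Fam71a and 4 long intergenic transcripts near Egr3 and Btg1 are described with their neighbours on the mm9 genome, to which the probes are placed. They were chosen after their values were seen, and of the 26 low intergenic transcripts with an agreeing probe 1 lies nearest to Egr3 and 2 to Btg1, while the others have other neighbours. The low end was led by Fam71a, whose only probe was at 2.18 on WT, 2.20 on Aspp1-/-, 1.49 on p53-/- and −2.35 on Aspp1-/-p53-/-, an interaction of −3.86. That probe (chr1:192986463-192986522) lies 8.03 kb from the Atf3 probe on the same strand, and Atf3 was also lowest without both genes. The long intergenic transcript chr14:70483555-70484159_F begins 4.27 kb from Egr3 on chromosome 14. Its brightest probe was at −0.03, 0.49, −0.24 and −2.89, an interaction of −3.17, and its other 2 probes gave −2.62 and −1.68. Egr3 itself was well above background only on the WT and Aspp1-/- arrays and has no interaction here.

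Near Btg1, an antiproliferative gene, 3 intergenic transcripts on the same strand were in the low end. The transcript chr10:96098058-96098623_F, 12.6 kb away, was at 2.41 on WT, 2.44 on Aspp1-/-, 1.72 on p53-/- and 0.50 on Aspp1-/-p53-/-, an interaction of −1.25, with −1.41 and −0.79 from its other 2 probes. The transcripts chr10:96096995-96097589_F and chr10:96103732-96103867_F were at −1.97 and −1.85. Btg1 itself was at 4.80, 4.55, 4.46 and 3.99 by its brightest probe, an interaction of −0.22, and its other probe was at 0.33. The neighbours were thus past the rule while the gene was not. The probes of the first 2 of these transcripts are given because all 3 probes of each had the same sign at different sequences, which few genes of either end offer. They are all 60 bases long, on the plus strand of mm9, printed in lower case with nothing marked.
chr14:70483555-70484159_F probe 1 (chr14:70484011-70484070): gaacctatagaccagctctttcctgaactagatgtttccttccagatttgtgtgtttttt
chr14:70483555-70484159_F probe 2 (chr14:70484090-70484149): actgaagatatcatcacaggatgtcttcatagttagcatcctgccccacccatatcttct
chr14:70483555-70484159_F probe 3 (chr14:70483858-70483917): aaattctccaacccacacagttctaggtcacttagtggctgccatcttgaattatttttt
chr10:96098058-96098623_F probe 1 (chr10:96098468-96098527): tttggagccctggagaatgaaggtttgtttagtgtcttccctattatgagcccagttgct
chr10:96098058-96098623_F probe 2 (chr10:96098532-96098591): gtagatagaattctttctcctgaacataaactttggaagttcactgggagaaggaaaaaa
chr10:96098058-96098623_F probe 3 (chr10:96098125-96098184): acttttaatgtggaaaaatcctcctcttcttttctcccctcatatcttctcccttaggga

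NF-kB is a family of transcription factors that drives inflammatory genes. Of 31 measured pathway genes 2 (6.45%) were in the low end, against 1.06% of all genes, and the median was −0.09. On the log2 scale 20 (64.5%) lay below 0, against 54.1% of all genes, and on the linear scale 15 did. Cd83, a surface marker of activated antigen-presenting cells, was at 0.33 on WT, 0.01 on Aspp1-/-, −0.57 on p53-/- and −2.39 on Aspp1-/-p53-/-, an interaction of −1.49. F3, which encodes tissue factor, was at −0.99, −1.52, −2.17 and −3.90, an interaction of −1.20. This value was −0.45 with another background correction (normexp), and on the linear scale, as a share of the gene's mean level, it was 0.0015, so the direction of F3 rests on the log scale. Nfkbid, an inhibitor-like regulator of the pathway (−0.93), and the chemokine genes Ccl4 (−0.85) and Ccl3 (−0.57) were also negative. The core subunits and feedback inhibitors were near additive: Rela was at 0.07, Nfkb1 at 0.20, Nfkbia at 0.09 and Tnfaip3 at −0.13.

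Genes that p53 activates directly were centred near 0. Of 40 listed, 35 were measured, with a median of −0.04, 16 above 0, and 1 past the rule at each end. Fas, the death receptor gene, was at −3.08 on WT, −3.65 on Aspp1-/-, −3.44 on p53-/- and −2.08 on Aspp1-/-p53-/-, an interaction of 1.93 from a single dim probe. Pmaip1, the gene of the apoptosis inducer NOXA, was at 1.97, 1.82, 1.18 and −0.02, an interaction of −1.05. Plk2 (−0.87), Btg2 (−0.86) and Cdkn1a (−0.63), the last encoding the CDK inhibitor p21, were lowest without both genes as well. Of the Cdkn1a probes the other did not have the same sign.

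Other p53 targets were lower on both arrays without p53 and had interactions within the size rule. Bbc3, the gene of the apoptosis inducer PUMA, was at 2.97, 2.58, 1.84 and 1.81, an interaction of 0.36. The loss of Aspp1 went with a difference of −0.39 with p53 and −0.03 without it, so the p53-/- and Aspp1-/-p53-/- arrays were nearly the same. Zmat3 was at −1.58, −1.52, −2.27 and −2.20 (0.01), and Mdm2, the ubiquitin ligase that degrades p53, had an interaction of 0.00. Of 27 targets whose promoter was listed, 11 (40.7%) held a p53 half-site. The apoptosis genes in general had a median of −0.04 over 33 measured, and Fas and Pmaip1 were the only ones past the rule.

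Genes of quiescence and the CDK inhibitors had a median of −0.21 over 26 measured, and 17 lay below 0. Klf4 was the 1 member past the rule, and Klf2, Btg2 and Nr4a2 (−0.67), which are also immediate-early or p53 target genes, were next. Stem cell genes had a median of −0.04 over 43, none past the rule, with Fgd5 at −0.52 and Slamf1 at −0.42. Of the Notch pathway, Nrarp, a feedback regulator and target of Notch, was at −1.07, −1.37, −1.30 and −2.72, an interaction of −1.12, while the list's median was 0.01 over 21.

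Among the 25 low genes with a mean level above 0, where the scatter is smallest, 11 belonged to at least 1 of the gene lists. The share of all measured genes that belong to a list was not worked out. Aspp1-/-p53-/- was the lowest array in 23 of these 25, against 29.3% of all genes. It stood apart alone in 19, against 10.8% of all genes. A low Aspp1-/-p53-/- value lowers the interaction directly, so choosing low genes favours both counts. The genes outside the lists are named here after their values were seen. Tlr12, a Toll-like receptor gene, was at 0.96 on WT, 1.48 on Aspp1-/-, 1.69 on p53-/- and 0.61 on Aspp1-/-p53-/-, an interaction of −1.60. Here each single loss was higher than WT and the loss of both was lower than WT. Pde3b, a cyclic nucleotide phosphodiesterase gene, had the same order with 1.49, 1.74, 2.12 and 0.98 (−1.39). Iqsec3 and Iqsec1, which encode exchange factors for ARF GTPases, were at −1.22 and −1.11, with Iqsec1 at 1.36, 1.39, 1.41 and 0.33. Grifin (−1.37), Smim5 (−1.23) and Bcap29 (−1.16) also had Aspp1-/-p53-/- alone low. All of these rest on 1 probe.

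The high end had 57 RefSeq genes, 27 long intergenic transcripts and 61 other transcripts. A further probe had the same sign for 5 RefSeq genes and 3 intergenic transcripts, 8 of the 15 with more than 1 probe. The largest of the 5 was Gnaz, which encodes the alpha subunit of the G protein Gz. It was at −3.65 on WT, −3.66 on Aspp1-/-, −3.93 on p53-/- and −1.35 on Aspp1-/-p53-/-, an interaction of 2.60, and its further probe, 23.7 kb away, gave 1.10. Mospd2, a membrane protein gene, was at −2.25, −2.70, −2.16 and −0.88, an interaction of 1.72, while its further probe gave 0.29. In both the array without both genes was alone high.

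The other genes of the high end with an agreeing probe were carried by other arrays. Ly9, a SLAM family receptor gene of lymphocytes and progenitors, was at −0.11 on WT, −1.13 on Aspp1-/-, −0.29 on p53-/- and −0.01 on Aspp1-/-p53-/-, an interaction of 1.30, and its further probe had the same shape with 1.02. Aspp1-/- alone was low, and with p53 absent the loss of Aspp1 went with no such difference. Arl6, a small GTPase gene of ciliary transport, was at 0.65, −0.51, −0.48 and −0.37, so its interaction of 1.26 came from a high WT array, and the further probe gave 0.13. Gm14625 was at −2.85, −3.40, −4.07 and −3.51 (1.11), with no single array apart and 0.41 from an overlapping probe.

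Other large interactions of the high end stood on 1 probe. Mageb1, a gene of the testis-expressed MAGE family, was at −4.04 on WT, −4.12 on Aspp1-/-, −3.92 on p53-/- and −0.61 on Aspp1-/-p53-/-, an interaction of 3.38. Olfr700, an olfactory receptor gene, had 3.17, Dnah7a, an axonemal dynein gene, 2.84, Krt13, a keratin gene, 2.53, and Zp1, an egg coat gene, 2.07. In these 4 genes the other 3 arrays lay between −4.08 and −3.21, and Aspp1-/-p53-/- alone lay between −1.72 and −1.09. They are best known from other tissues and were dim on 3 of the arrays. Nabp1, a single-stranded DNA binding protein gene, was somewhat brighter at −1.23, −1.39, −1.62 and 0.15 (1.94). Cyp2j7 (2.16), 2900024J01Rik (2.01) and Gm7969 (1.92) were high on WT alone.

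Bright genes were rare at the high end, 14 of 145, and none belonged to a list. Eaf2, which encodes a transcription elongation factor, was at 4.75, 4.56, 4.57 and 5.39, an interaction of 1.02, but a further probe gave −0.29. Clec2d, a lectin-like ligand gene, was at 1.56, 0.81, 1.48 and 1.78 (1.06), with Aspp1-/- alone low. Both were named after their values were seen.

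At the low end 6 of the 8 RefSeq genes with an agreeing probe, those other than Camp and Gdf3, were carried by a single loss. Paqr6, a membrane progestin receptor gene, was at −3.47 on WT, −1.49 on Aspp1-/-, −3.16 on p53-/- and −3.97 on Aspp1-/-p53-/-, an interaction of −2.79, while its further probe gave only −0.12. Sh3rf1, a scaffold and ubiquitin ligase gene, was at −1.87, −0.65, −2.14 and −2.09 (−1.17), and Stam2, an endosomal sorting gene, at −1.66, −0.87, −1.42 and −1.63 (−1.01). In these 3 Aspp1-/- alone was high.

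A high p53-/- array carried 3 more. Pdcd1lg2, which encodes the checkpoint ligand PD-L2, was at −0.74, −0.46, 0.59 and −0.38, an interaction of −1.25. Its further probe, offset by only 3 bases, was at −0.72, −0.45, −0.44 and −0.37, an interaction of −0.20, so the p53-/- value was not shared by nearly the same sequence. Cadps2, a gene of vesicle release, was at −1.60, −1.49, −0.72 and −1.68 (−1.08), and Recql5, a DNA helicase gene, at −1.80, −1.86, −0.58 and −1.69 (−1.05), with further probes at −0.11 and −0.17. Gdf3, a ligand gene of the TGF-beta family, was at −0.68, −0.26, −0.69 and −1.32 (−1.04), with no single array apart and −0.21 from its further probe. Among the 8 RefSeq genes of this kind, Camp was the one with both probes past the rule.

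Of the low genes with 1 probe, Eml5 (−3.08), Ncam1 (−2.25), Rergl (−2.17) and Bahcc1 (−1.96) had p53-/- alone high. Eml5, a microtubule-associated protein gene, was at −3.63, −3.69, −0.65 and −3.79. Nxpe2 (−2.57) and Adcy3 (−2.13), an adenylyl cyclase gene, had Aspp1-/- alone high. Mybpc3, a cardiac sarcomere gene, was at −0.52, −0.56, −0.98 and −3.12 (−2.10), with Aspp1-/-p53-/- alone low. All but Mybpc3 were dim on 3 of the 4 arrays.

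Which array stood apart differed between the ends. At the high end Aspp1-/-p53-/- alone was high for 69 of 145 genes (47.6%), WT alone was high for 27, p53-/- alone was low for 9 and Aspp1-/- alone was low for 5. At the low end p53-/- alone was high for 72 of 201 (35.8%), Aspp1-/-p53-/- alone was low for 47, Aspp1-/- alone was high for 20 and WT alone was low for 5. No single array stood apart for 35 and 57 genes, against 65.7% of all genes. The signs follow from how the interaction is built. The counts by array depend in part on the filter, which asks for detection on every array. It leaves a dim gene room to stand high on 1 array but little room to stand low. The filter therefore bears both on these counts and on the levels of the genes that each array carried. The low genes carried by p53-/- were dim, with a median level of −2.75, and those carried by Aspp1-/-p53-/- were brighter, with −0.66. Of the 25 bright low genes 19 were carried by Aspp1-/-p53-/- and none by p53-/-.

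**Figure D3:**
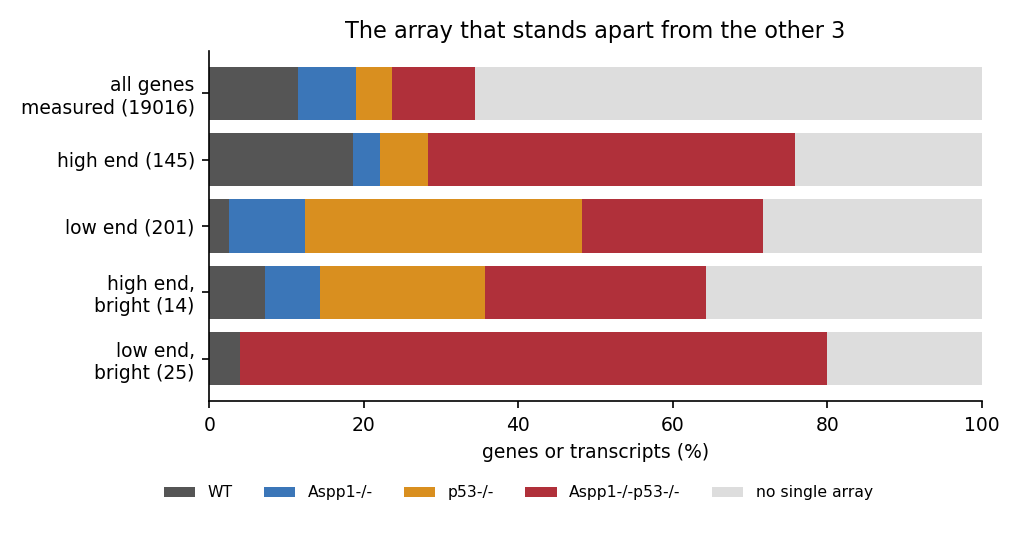
Share of genes (%, horizontal axis) for which 1 array stands apart from the other 3, for all genes and for both ends, and for the members of each end with a mean level above 0 (bright). Aspp1-/-p53-/- is the largest single-array share at the high end (47.6%) and among bright low genes (19 of 25), and p53-/- is the largest in the whole low end (35.8%).

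Transcripts of the antigen receptor loci, 84 of the 19016 measured (0.442%), were 21 of the 145 high and 16 of the 201 low. Of 37 measured immunoglobulin heavy chain variable transcripts (chr12:115298115-117238485, mm9) 9 (24.3%) were in the high end and 2 (5.41%) in the low end, against 0.763% and 1.06% of all genes, and the median was 0.73. Their median level was −0.40 on WT, 0.38 on Aspp1-/-, −1.41 on p53-/- and 0.02 on Aspp1-/-p53-/-, and for 6 of the 9 p53-/- alone was low. Of 33 kappa transcripts (chr6:67505984-70653921) 10 (30.3%) were in the high end and 12 (36.4%) in the low end. For 8 of those 10 WT alone was high, while Aspp1-/- was the array farthest from the others for most of the 12 low ones.

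These loci therefore had no common direction. The transcript ENSMUST00000103324, a kappa variable gene, was at 2.05, 1.90, −0.04 and −2.22, an interaction of −2.03, and −2.35 by its further probe. The lambda constant transcript ENSMUST00000103743 was at 0.03, 1.61, 1.77 and 1.07 (−2.28), with WT alone low. Its further probe, which overlaps the first, gave −2.05. Variable genes of a locus share sequence, so one probe can read several of them, and the transcripts are not independent of each other. Each array is a pool of 3 mice, so 1 mouse can set such a level. The B-lineage genes, which mark the cells that transcribe these loci, had no member past the rule. Of 20 measured, 11 lay above 0 and 9 below. Those largest in size were Ebf1 at 0.56, Spib at −0.49, Rag1 at 0.48 and Igll1 at 0.46.

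Long intergenic transcripts made up 60 of the 201 low genes. Of all 2295 measured, 2.61% were in the low end, against 0.655% of RefSeq genes, and their scatter was larger, with a standard deviation of 0.45 against 0.27. Only 39 of the 201 low genes of any kind had more than 1 measured probe, so not all of the 60 could be checked. A further probe had the same sign for 26 of them. In some of these another probe had the opposite sign. The further probes of chr17:17628846-17641021_R ran from −0.45 to 0.58, and those of chr11:116936834-116948799_R from −0.06 to 0.43. In others the agreeing value was near 0, as in chr13:62117000-62164075_R (−0.02). The transcript chr13:104591573-104599048_R had −1.38, −1.58 and −2.15 from 3 probes and lies 10.1 kb from Erbin (0.15). The largest of the 3 at the high end with an agreeing probe was chr8:41941084-41947630_R, at −3.33 on WT, −3.54 on Aspp1-/-, −3.69 on p53-/- and −1.32 on Aspp1-/-p53-/-, an interaction of 2.58, and 2.37 by its further probe.

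Several large pathways had small interactions that leaned one way. G2/M and mitosis genes had a median of 0.12 with 30 of 36 above 0, interferon response genes 0.09 with 35 of 49, and ribosomal protein genes 0.06 with 36 of 40, though relative to all genes the ribosomal median turned from 0.08 to −0.01 under quantile scaling. G1/S and DNA replication genes had −0.08 with 34 of 41 below 0, MYC network genes −0.10 with 21 of 25 below, and oxidative phosphorylation genes −0.06 with 30 of 40 below. No member of these 6 lists was past the rule. The Hippo pathway genes had a median of −0.02 over 16, with Lats1 at −0.18 and Lats2 at −0.23. Of all 29 lists, 7 had a median at least 0.10 from that of all genes.

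**Figure D4:**
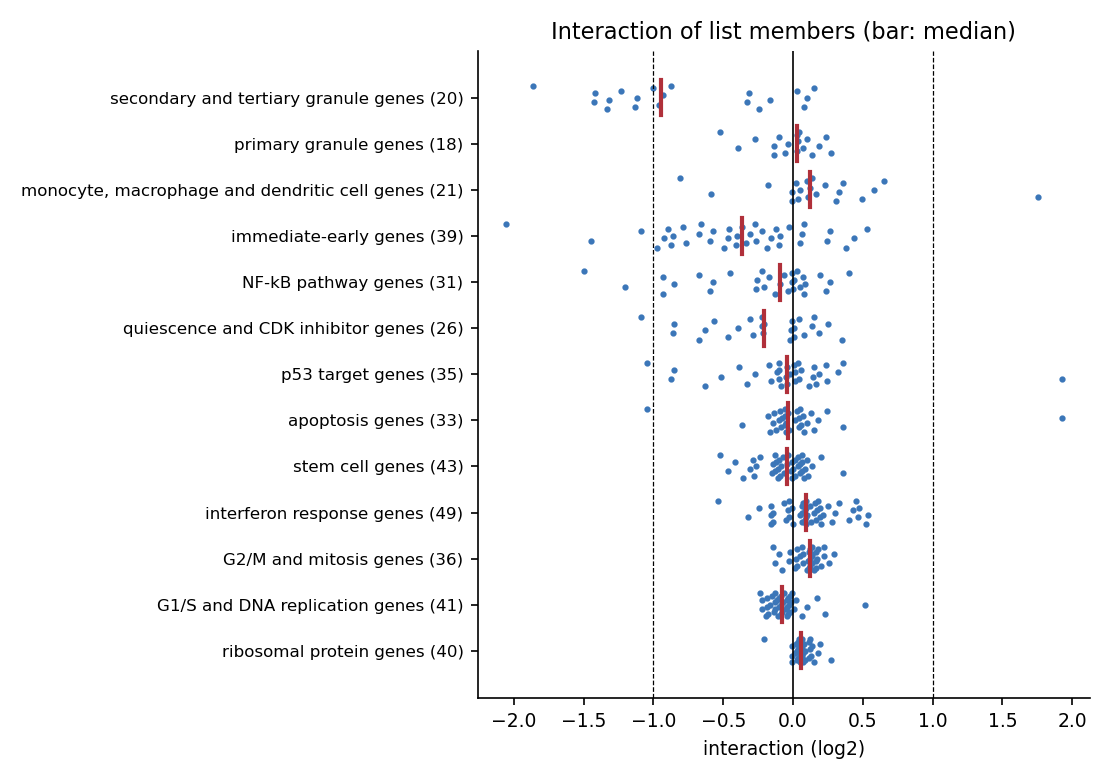
Interaction (log2, horizontal axis) of each measured member of 13 lists, 1 point per gene, with the number measured in brackets and a red bar at the median. The secondary and tertiary granule genes have a median of −0.94 and the immediate-early genes one of −0.37, and the other medians lie between −0.21 and 0.12.

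The only internal repeat for an interaction is another probe of the same gene, which shares the RNA and the array. Over the 5205 genes with more than 1 probe, the next brightest probe had the sign of the brightest for 60.9%. The share was 55.0% where the interaction was under 0.1 in size, 74.2% from 0.5 to 1 and 83.3% (45 of 54) at 1 or more. The ends differed: 37 of 39 low genes (94.9%) had a next probe of the same sign, against 8 of 15 high genes (53.3%). Where any further probe may count as agreeing, a gene with 3 probes has more chances of a match than a gene with 2. Sharing a sign is not sharing a size. The next probe of low genes had a median of 0.40 in the same direction, and that of high genes one of 0.13. Mylk, a myosin light-chain kinase gene named after its values were seen, had 2.98 by its brightest probe and a further probe of opposite sign.

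**Figure D5:**
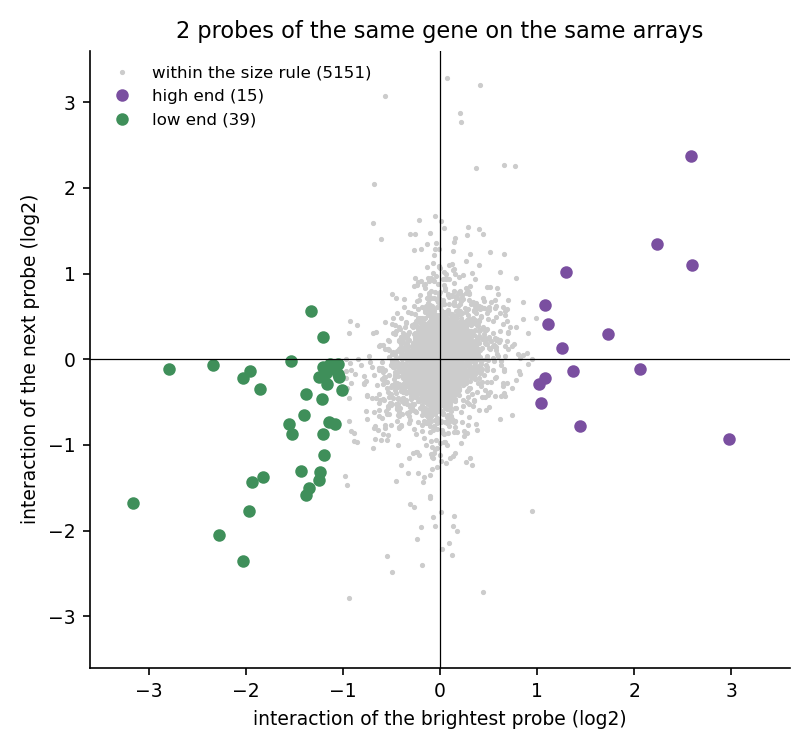
Interaction (log2) of the brightest probe (horizontal axis) and of the next brightest probe (vertical axis) for genes with more than 1 probe well above background on all arrays. Low genes (39) lie mainly at the lower left, and high genes (15) are split above and below 0.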

How the data were processed

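Per the labels' protocols, RNA was amplified and labelled with Cy3 by a low-input kit. Per the file headers, spots were read with Agilent Feature Extraction 10.7.3.1 and placed on mm9. The deposited intensity is the processed signal, background-subtracted on a linear scale and not normalised between arrays, and the deposited other values are 0 or 1 flags that mark detection above background, saturation and outlying spots. The authors' value table holds log2 values centred per probe, with scale, centring and direction read from the values, and was used as an alternative only.

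Control spots (3671 an array) and outlier-flagged spots (120, 121, 171 and 172 in the order WT, Aspp1-/-, p53-/- and Aspp1-/-p53-/-) were dropped, repeated spots were averaged, and log2 intensity was set relative to each array's 75th percentile over gene spots (signals of 570, 597, 580 and 535). Probes had to be well above background on every array, and the brightest stood for its gene. File names were updated through RefSeq, by accession for 12373 genes, by symbol for 904 and by synonym for 160. With 0 residual degrees of freedom a rule of size replaced a test. Just inside it lay BC026513 (1.00) and Wfdc21, and just outside values of 0.996 and −0.999.

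Named were the targeted genes and their family, up to 25 genes an end with an agreeing probe, up to 10 an end with 1 probe and up to 4 members a list. Other list members are examples, and genes named after their values were seen fall outside this rule. The members, lists and rules were chosen with earlier results of these data known. Alternatives were other scalings, filters, probe summaries and rule sizes, with limma 3.58.1 in R 4.3.3 for normexp, quantile and cyclic loess, and numpy 2.4.6 and pandas 2.3.3 in Python for the rest. On simulated data 200 of 200 changed genes were recovered. The shifts put in were larger than the size rule and the noise was smaller than the scatter of dim genes. This checks the calculation only and not the calls at either end. The number of arrays limits the precision.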

Additional observations from a re-analysis of the deposited data

Results flagged for a closer look

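In 5 of the 42 named genes past the size rule the loss of Aspp1 went in opposite directions with and without p53, by at least 0.5 on the log2 scale each way. A large interaction by itself favours such opposite moves. With 1 array per genotype the difference between the 2 directions was not tested in any of them. Egr2 had an interaction of −2.06, from 0.59 with p53 and −1.47 without. Fas had 1.93, from −0.57 and 1.36. Paqr6 had −2.79, from 1.98 and −0.81, and its further probe gave −0.12. Dnah7a had 2.84, from −0.53 and 2.31, on 1 dim probe. Gm14625 had 1.11, from −0.56 and 0.56.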

How the results depend on the processing

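The counts of 145 high and 201 low genes kept within 1.5 times under 7 alternatives (other array scalings, the authors' value table, outlier spots kept, the mean of all probes), and these moved the median of all genes by less than 0.1. They became 63 and 81 with normexp background and quantile scaling, 1163 and 1374 with probes well above background on at least 1 array, 37 and 58 with a signal of at least 100, 55 and 82 at a log2 size of 1.5, and 483 and 623 at a fold of 1.5. Of the 63 and 81 genes, 61 and 78 were among the main ones. Of the 42 named genes past the rule, none changed the sign of its log2 interaction under the scalings and filters that kept it. The named genes within the rule were not recomputed one by one. Some list medians near 0 relative to all genes crossed it, among them NF-kB genes from −0.07 to 0.01 on the linear scale, T cell genes from −0.02 to 0.01 and Notch genes from 0.03 to −0.00 under normexp, Notch genes to −0.07 with a signal of at least 100, and ribosomal protein genes from 0.08 to −0.01 under quantile scaling. On the linear scale 200 of 201 low genes and 41 of 42 named genes kept their sign, and F3 did not. The count of probes agreeing was 24 of 45 where the further probe had to reach 0.5 of the size. The genes with a single array apart were 147 of 346 at a stricter limit of 0.25, against 254. On the linear scale 3 lists, not 7, stood 0.1 from all genes. Named genes past the rule were 20 of 42 with a signal of at least 100, 24 at a log2 size of 1.5 and 65 at a fold of 1.5. The median of the granule list relative to all genes was −0.58 under normexp and −0.36 on the linear scale, against −0.93 in the main setting, and that of the immediate-early list was −0.12 on the linear scale against −0.35. List medians kept within their limits in 312 of 319 recomputations and named genes in 359 of 398, with 29 of the 39 moved values under normexp. Leaving out an array was not run, since the interaction needs all 4. No paired analysis was possible because each genotype has 1 array. Dim genes limit both ends: the scatter under a level of −3 was 0.55.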
